A study of Mus musculus with 6 samples.

Results

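Thick ascending limb (TAL) cells were singled out from single-cell RNA-seq libraries of whole mouse kidneys, 1 library from each of 3 sham mice and 3 DOCA-salt mice. A barcode was taken as a TAL cell when it held at least 1000 unique molecular identifiers (UMIs), at most 50% of them mitochondrial, at least 4 UMIs of Slc12a1, at most 1 of Slc12a3, at most 0.2% of its UMIs in the proximal tubule genes Lrp2, Slc34a1, Slc5a12 and Slc22a6 together, and none of Ptprc, Pecam1 or Col1a1. These limits kept 3585 of 76774 barcodes, out of 50910 that passed the UMI and mitochondrial limits. All animals were male C57BL/6 mice that entered the study at 8 to 10 weeks of age. The DOCA-salt mice had lost the left kidney and then carried a 50 mg pellet of deoxycorticosterone acetate (DOCA), a mineralocorticoid precursor of aldosterone, with 1% NaCl to drink for 21 days. The sham mice had a sham operation, ordinary water and no pellet, so the loss of a kidney and DOCA-salt cannot be told apart. The study asked what part extracellular ATP from tubule cells plays in aldosterone-driven injury of the kidney, and the comparison here asks how the TAL differed between the groups.

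The TAL is the water-tight segment of the nephron that takes up sodium, potassium and chloride from the tubular fluid through the furosemide-sensitive cotransporter NKCC2, encoded by Slc12a1. It secretes uromodulin (Umod) and epidermal growth factor (Egf), and its paracellular pathway of claudins returns calcium and magnesium to the blood. At its end, where the tubule touches its own glomerulus, lie the macula densa cells, which sense luminal salt through the same cotransporter and answer with nitric oxide from neuronal nitric oxide synthase (Nos1) and with prostaglandins. NKCC2 is switched on by phosphorylation through WNK kinases and their targets SPAK (Stk39) and OSR1 (Oxsr1).

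The sham mice gave 705, 476 and 745 TAL cells and the DOCA-salt mice 656, 529 and 474, in the order of the mouse numbers. Their median depth was 7198 to 10650 UMIs per cell, and 32.7% to 35.2% of the UMIs of the median cell were mitochondrial. At the edge of the selection, 1 to 9 cells per mouse had exactly 4 Slc12a1 UMIs, and 3 to 27 further barcodes per mouse met every other limit with 3. Slc12a1, which chose the cells, stood at 6897 to 8328 CPM (UMIs of a gene per 1000000 UMIs of the summed TAL cells, scaled by the TMM method) in all 6 mice. Umod was at 15294, 11616 and 18467 CPM in the sham mice and 12287, 15012 and 13219 CPM in the DOCA-salt mice, and Egf at 4712, 6839 and 5233 against 4363, 3239 and 3863 CPM. The Umod levels of the groups overlapped, with a log2 change (DOCA-salt minus sham) of -0.16 ± 0.19 (SE, n = 3 mice per group, adjusted p = 0.807). Egf was lower in each DOCA-salt mouse than in any sham mouse, with a mean 1.46-fold lower, and did not pass the test (log2 -0.55 ± 0.18, adjusted p = 0.204). Egf did pass with DESeq2 (adjusted p = 0.0398) and in edgeR without the filter on low counts (adjusted p = 0.0149). Per the annotation of GRCm39 (GENCODE), Slc12a1 lies on chromosome 2 at 124994425 to 125071922, Umod on chromosome 7 at 119061934 to 119078505 and Egf on chromosome 3 at 129470410 to 129549093.

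TAL cells made up 7.93%, 6.61% and 8.58% of the barcodes past the UMI and mitochondrial limits in the sham mice and 7.54%, 5.81% and 5.70% in the DOCA-salt mice. The difference of -1.36 percentage points did not pass the test (7.70 ± 1.00% against 6.35 ± 1.03%, SD, exact two-sided permutation test, p = 0.2, where 3 against 3 mice allow no p below 0.1). The last limit, no UMI of Ptprc, Pecam1 or Col1a1, took 763, 504 and 797 candidates to 705, 476 and 745 in the sham mice. In the DOCA-salt mice it took 758, 673 and 548 to 656, 529 and 474, a larger part, so the difference also depends on the selection. Principal cells of the collecting duct, taken by the same kind of rule on Aqp2, went from 3.84 ± 0.69% to 1.52 ± 0.086% of barcodes (p = 0.1), and cells of the distal convoluted tubule (DCT), taken on Slc12a3, from 2.02 ± 0.75% to 2.77 ± 0.14% (exact p = 0.3). The rule on Aqp2 set no limit on genes of the connecting tubule, so connecting tubule cells with Aqp2 were not kept out of the principal cells. Within the TAL, claudins part the segment, with Cldn16 and Cldn19 in calcium- and magnesium-reabsorbing cells and Cldn10 in sodium-permeable ones. With each cell thinned to 1000 UMIs, a UMI of Cldn16 or Cldn19 was found in 26.2 ± 2.97% of sham and 27.1 ± 2.12% of DOCA-salt TAL cells (exact permutation p = 0.7), and in 79.0% and 83.3% without thinning.

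The libraries differed in ways the groups did not explain. Over the TAL sums, the component with the largest share of variance (44.0%) set sham 1, sham 3 and DOCA-salt 2 apart from the other mice, and the next one (32.7%) parted the groups. Proximal tubule genes outside the selection rule summed to 4190, 1883 and 5059 CPM in the sham TAL cells and 2951, 2397 and 2600 CPM in the DOCA-salt ones. In DOCA-salt 2, 1130 barcodes with at least 4 Slc12a1 UMIs gave 529 TAL cells, the lowest yield of the 6 mice. The Slc12a3 limit left 897 of those 1130. It left 865 of 878, 542 of 550 and 908 of 927 in the sham mice, and 825 of 835 and 599 of 607 in DOCA-salt 1 and 3. The libraries shared 33 to 69 barcodes per pair, of which 1 TAL barcode was common to DOCA-salt 1 and 3 and 1 to DOCA-salt 2 and 3.

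UMIs were summed over the TAL cells of each mouse and compared with the quasi-likelihood F test of edgeR, and genes with a Benjamini-Hochberg adjusted p under 0.05 over all 12386 genes tested are called rises or falls. There were 105 rises (0.848%) and 77 falls (0.622%), or 1.47% in either direction, around a median log2 change of 0.00 over all genes. The count rested on single mice: it was 44 without DOCA-salt 3, 47 without sham 1, 76 without sham 3, 103 without DOCA-salt 2, 128 without DOCA-salt 1 and 636 without sham 2. The direction of all 182 calls stayed the same in each of these. Of the 51 genes described below under the naming rule that passed, 22 passed without each mouse in turn, and for the others the mice whose removal ended the call are given. Of all genes, 17.4% had groups that did not overlap, 9.07% with DOCA-salt higher and 8.34% with DOCA-salt lower. In sums over cells, fewer cells of one kind and less RNA per cell cannot be told apart. Counts of calls in the gene lists below are to be read beside the 0.848% rises and 0.622% falls of all genes. The lists were chosen with earlier results of these data known, so these counts are descriptions. The low-count filter asked for enough UMIs in 3 mice, so a gene scarce in 1 group could enter the test through the other.

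**Figure D1:**
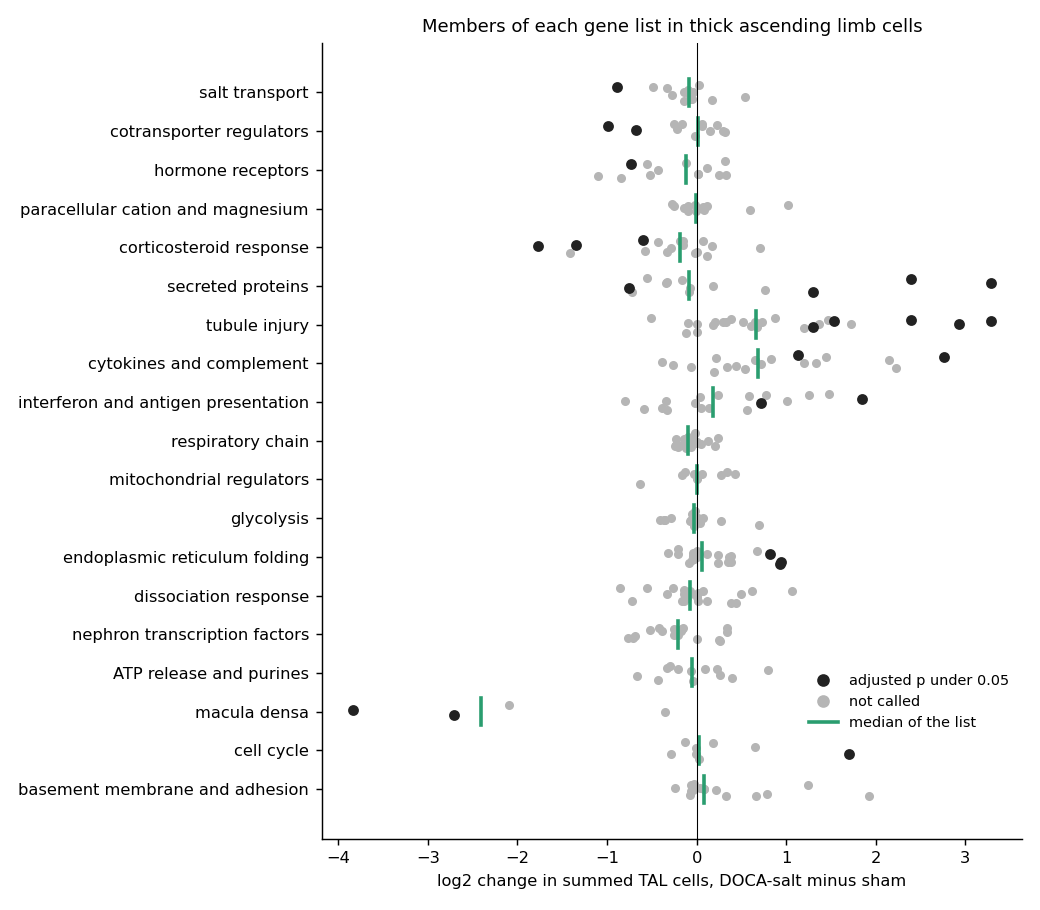
Log2 change of each tested member of 19 gene lists in the summed TAL cells (x axis, DOCA-salt minus sham, 3 mice per group), with called members in black, others in gray and the list median as a green line. Havcr1, Top2a and Fn1, whose sham sums were 3 UMIs or fewer, and the selection gene Slc12a1 are not drawn. The macula densa list lies at a median of -2.41 and the injury and cytokine lists at 0.66 and 0.68, and most other medians lie near 0.

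Genes of the macula densa were among the falls. Of 4 listed macula densa genes, all of them tested, 2 fell and none rose, against 0.622% falls among all genes, with a median log2 change of -2.41. The list was chosen with earlier results of these data known, so its count is a description. Pappa2 and Ptgs2 did not meet the low-count filter in all 3 DOCA-salt mice and passed it only with sham UMIs. Nos1, the synthase whose nitric oxide dampens the constriction of the afferent arteriole, was at 28.1, 23.8 and 24.6 CPM in the sham mice and 4.26, 2.32 and 5.54 CPM in the DOCA-salt mice. It thus fell 6.56-fold (log2 -2.71 ± 0.25, adjusted p = 0.000681), with no overlap. Pappa2, a protease that frees insulin-like growth factors from their binding proteins, was at 33.4, 13.5 and 17.1 CPM against 1.97, 0.828 and 1.85 CPM, a 14.2-fold fall (log2 -3.83 ± 0.43, adjusted p = 0.00242). Ptgs2, the cyclooxygenase that makes the prostaglandin signal for renin release, was scarce at 2.02 to 2.44 CPM in sham and 0.166 to 0.819 CPM in DOCA-salt mice, and its log2 change of -2.10 ± 0.51 did not pass (adjusted p = 0.0763). Avpr1a, a vasopressin receptor, changed by -0.35 ± 0.24 (adjusted p = 0.636). Nos1 lies on chromosome 5 at 117918971 to 118096905 and Pappa2 on chromosome 1 at 158539297 to 158808060 of GRCm39.

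Robo2, a receptor for Slit guidance proteins, had the largest called fall among genes averaging 20 CPM or more across all mice, a level that Nos1 and Pappa2 did not reach. It was at 121, 126 and 129.7 CPM in the sham mice and 29.8, 16.4 and 44.3 CPM in the DOCA-salt mice (log2 -2.09 ± 0.26, adjusted p = 0.00463). Each DOCA-salt mouse was well below each sham mouse. Nos1, Pappa2 and Robo2 averaged at most 0.77 CPM in sham DCT, principal and proximal tubule cells. The calls of Nos1, Pappa2 and Robo2 held without each mouse in turn, with adjusted p up to 0.0275. The size of the falls varied with the cells used. In cells with a Cldn16 or Cldn19 UMI, Nos1 was at -1.46 and Pappa2 at -2.16 on the log2 scale. Without cells holding macrophage or fibroblast UMIs, which leaves out a larger part of the DOCA-salt cells, they were at -5.37 and -8.64.

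The cells that carried these UMIs could be counted. TAL cells with at least 2 UMIs of Nos1 and Pappa2 together, a limit set after the values were seen and so given without a test, numbered 22, 18 and 20 in the sham mice and 6, 1 and 5 in the DOCA-salt mice. They were 3.12%, 3.78% and 2.68% of the sham TAL cells and 0.915%, 0.189% and 1.05% of the DOCA-salt ones. After thinning of every cell to 1000 UMIs, a UMI of either gene was left in 2.27%, 2.73% and 2.01% of sham and 0.305%, 0% and 0.211% of DOCA-salt TAL cells, against 0% to 0.0323% of proximal tubule cells, which should lack them. The 0 of 529 thinned cells in DOCA-salt 2 allows a share of up to 0.567% at that depth, for counting error only, and 0.756% of its TAL cells held a UMI of either gene without thinning.

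The sham cells chosen in this way differed from the other TAL cells in genes that the choice did not use. They had 1198 to 1897 CPM of Umod, against 12412 to 18235 CPM in TAL cells with no UMI of either gene, and 2098 to 2694 CPM of Robo2, against 11.1 to 22.1 CPM. They held 75.3%, 85.4% and 88.4% of all Robo2 UMIs of the sham TAL cells. Slc12a1, which chose all TAL cells and so is given only as a description, was at 7350 to 9328 CPM in these sham cells. The 6, 1 and 5 DOCA-salt cells chosen by Nos1 and Pappa2 had 3119, 3735 and 4079.5 CPM of Umod, above the sham range. Their Robo2, at 1427, 1724 and 1656 CPM, was below it. The choice thus did not take cells of 1 profile in both groups. Chosen by Robo2 instead (at least 5 UMIs, a limit also set after its fall was seen, so that the counts restate that fall), TAL cells numbered 30, 20 and 24 in the sham mice and 7, 7 and 6 in the DOCA-salt mice. Those sham cells had 433 to 490.2 CPM of Nos1, and the DOCA-salt ones 86.1 to 156 CPM. Of the DOCA-salt cells chosen by Robo2, 5 of 7, 3 of 7 and 4 of 6 held a UMI of Nos1 or Pappa2, against 22 of 30, 17 of 20 and 21 of 24 in the sham mice. Those of DOCA-salt 2 had 529 CPM of Robo2 and 1667 CPM of Clu, beside 1261 and 1636 CPM of Robo2 and 303 and 273 CPM of Clu in DOCA-salt 1 and 3, so the cells compared were not of 1 kind. Doublet scores marked 1 of the 60 sham cells and 1 of the 12 DOCA-salt cells chosen by Nos1 and Pappa2.

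**Figure D2:**
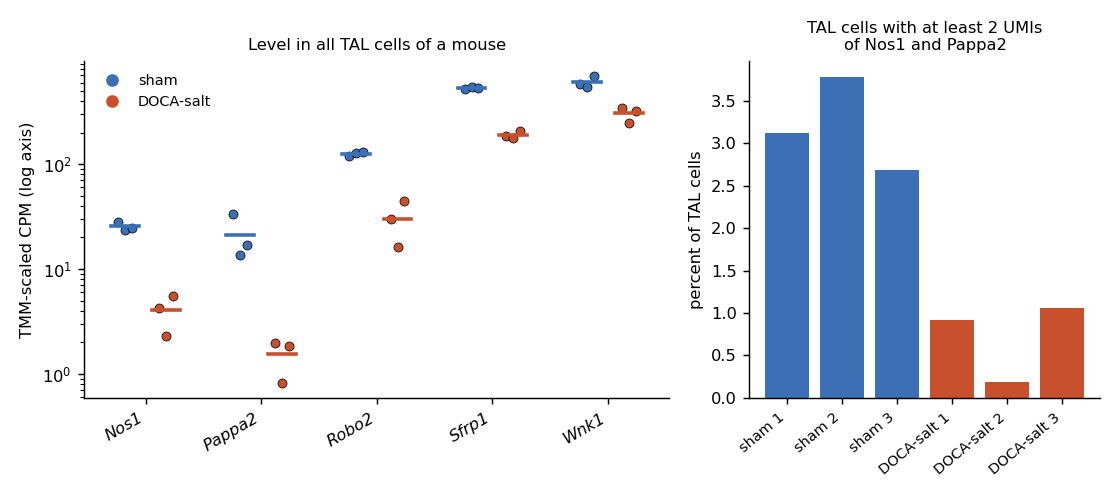
Left, TMM-scaled CPM (log axis) of 5 genes in the summed TAL cells of each mouse, with a line at the mean of each group. Right, percent of TAL cells of each mouse with at least 2 UMIs of Nos1 and Pappa2 together. The 3 DOCA-salt mice lie below the 3 sham mice throughout, with Nos1 at 2.32 to 5.54 against 23.8 to 28.1 CPM and the share of cells at 0.189% to 1.05% against 2.68% to 3.78%.

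Sfrp1, a secreted inhibitor of Wnt signals, also fell. It was at 526, 546 and 527 CPM in the sham mice and 187, 178 and 206 CPM in the DOCA-salt mice, a 2.81-fold fall (log2 -1.49 ± 0.12, adjusted p = 0.000681). Levels within a group differed little beside the gap between the groups. In cells with a Cldn10 UMI and none of Cldn16 or Cldn19 it fell by 1.92 on the log2 scale (adjusted p = 0.024). In cells with a Cldn16 or Cldn19 UMI it fell by 1.43 (adjusted p = 0.000262). Without the cells that held a UMI of Nos1 or Pappa2, Sfrp1 fell by 1.44 on the log2 scale (adjusted p = 0.000455) and Robo2 by 1.33 (adjusted p = 0.0344).

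Most genes of salt transport did not pass the test. Of 14 tested members other than Slc12a1, 1 fell and none rose, with a median log2 change of -0.09. The apical potassium channel Kcnj1 was at -0.14, the chloride channel subunit Bsnd at 0.03 and the sodium pump subunit Atp1b1 at -0.08, none of them past the test. The exception was Slc9a2, a sodium-proton exchanger, at 47.0, 45.2 and 35.6 CPM against 25.7, 20.5 and 23.0 CPM (log2 -0.88 ± 0.15, adjusted p = 0.0197), although its call was lost without sham 1, DOCA-salt 2 or DOCA-salt 3 (adjusted p up to 0.101).

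Among 12 regulators of the cotransporter, 2 fell and none rose (median 0.02). Wnk1, the chloride-sensing kinase that activates SPAK and OSR1, was at 587, 541 and 689 CPM in the sham mice and 344, 247 and 324 CPM in the DOCA-salt mice (log2 -0.99 ± 0.15, adjusted p = 0.0131). The groups were well apart, with a mean of 305 ± 51.2 against 606 ± 76.0 CPM, and the call was lost without sham 1, sham 3 or DOCA-salt 3 (adjusted p up to 0.0718). Klhl3, the adaptor that marks WNK kinases for breakdown, was at 57.3, 60.4 and 69.1 CPM against 34.7, 39.3 and 43.3 CPM (log2 -0.68 ± 0.13, adjusted p = 0.0310). That call held without sham 2 and was lost without any of the other 5 mice (adjusted p up to 0.132). Klhl3 was at -0.27 with cells thinned to 1000 UMIs (adjusted p = 0.805), at -0.46 without cells holding macrophage or fibroblast UMIs (adjusted p = 0.293) and at -1.96 with at most 20% mitochondrial UMIs (adjusted p = 0.00216). The kinases downstream were at 0.22 (Stk39) and 0.32 (Oxsr1) and the related Wnk4 at -0.25, none of them past the test. The 3' libraries do not part the full-length from the kidney-specific short transcript of Wnk1.

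Of 13 tested hormone receptors and their effectors, 1 fell and none rose (median -0.11). Vdr, the vitamin D receptor, was at 80.4, 83.9 and 86.2 CPM in the sham mice and 63.3, 45.7 and 41.4 CPM in the DOCA-salt mice (log2 -0.73 ± 0.15, adjusted p = 0.0453), a call that was lost without sham 1, sham 3, DOCA-salt 2 or DOCA-salt 3 (adjusted p up to 0.202). The calcium-sensing receptor Casr was at -0.11 ± 0.14 (adjusted p = 0.824), and Pth1r, the parathyroid hormone receptor, at -0.84 ± 0.20 (adjusted p = 0.0744). In the paracellular and magnesium list, 0 of 13 tested genes passed (smallest adjusted p 0.0977), with Cldn16 at -0.26, Cldn19 at 0.11 and Cldn10 at 0.01.

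The corticosteroid response list gave 3 falls and no rise among 17 genes (median -0.19), against 0.622% falls among all genes. Klf9, a transcription factor induced by corticosteroids in many cells, was at 209, 242 and 235 CPM against 143, 151 and 161 CPM (log2 -0.59 ± 0.11, adjusted p = 0.0313), lost without any mouse but sham 2 (adjusted p up to 0.122). The mineralocorticoid receptor Nr3c2 was at 260.1 ± 28.5 CPM in sham and 193 ± 12.1 CPM in DOCA-salt mice and did not pass (log2 -0.43 ± 0.12, adjusted p = 0.134), nor did its target Sgk1 (0.71 ± 0.23, adjusted p = 0.210) or Scnn1a (0.01 ± 0.13, adjusted p = 0.991).

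The other falls in that list were in 2 genes that also mark principal cells. Scnn1b, the beta subunit of the epithelial sodium channel, was at 7.45, 4.60 and 9.04 CPM against 2.46, 1.32 and 2.64 CPM (log2 -1.77 ± 0.35, adjusted p = 0.0352). It did not meet the low-count filter in DOCA-salt 2 and passed it only with sham UMIs. Hsd11b2, the enzyme that shields the mineralocorticoid receptor from glucocorticoids, was at 41.0, 61.5 and 40.2 CPM against 24.4, 10.1 and 21.6 CPM (log2 -1.34 ± 0.28, adjusted p = 0.0420). Neither gene overlapped between the groups. Both are on the list of 7 principal cell markers, all of them detected in TAL cells. The other 5 summed to 464, 128 and 144 CPM in the sham mice and 103, 43.3 and 120.1 CPM in the DOCA-salt mice, and of these Aqp3 fell (log2 -1.54 ± 0.29, adjusted p = 0.0299). Cells with at least 2 UMIs of Aqp2 (17, 5 and 17 in sham, 4, 8 and 7 in DOCA-salt mice) held 64.4% to 86.8% of the Hsd11b2 UMIs in 5 mice and 19.7% in DOCA-salt 2. Without these cells Hsd11b2 was at -0.68 (adjusted p = 0.257) and Aqp3 at -0.82 (adjusted p = 0.310), and Scnn1b was too scarce to be tested. With doublet scores removed the falls were also smaller and did not pass. Hsd11b2 was then at -0.67 (adjusted p = 0.452), Aqp3 at -0.90 (adjusted p = 0.377) and Scnn1b at -1.41 (adjusted p = 0.277). With at least 8 Slc12a1 UMIs, Aqp3 was at -1.02 (adjusted p = 0.141) and Hsd11b2 at -1.16 (adjusted p = 0.0883). Some other choices of cells gave larger falls. Without cells holding macrophage or fibroblast UMIs, Hsd11b2 was at -2.39 (adjusted p = 0.000142) and Aqp3 at -2.59 (adjusted p = 0.00768). In cells with Cldn10 and no Cldn16 or Cldn19 UMI they were at -4.03 (adjusted p = 0.00300) and -4.62 (adjusted p = 0.000351). With 1 mouse left out, adjusted p reached 0.141 for Scnn1b and 0.121 for Aqp3 (calls lost without any mouse but sham 2), and 0.135 for Hsd11b2 (lost without sham 1, sham 3, DOCA-salt 1 or DOCA-salt 3).

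Genes of tubule injury were among the rises. Of 26 tested genes on that list, 6 rose and none fell, against 0.848% of all genes. The list was chosen with earlier results of these data known, so its count is a description. Among the 6 is Havcr1, which had 0 sham UMIs and passed the low-count filter only through its DOCA-salt UMIs. Vcam1, also among the 6, was scarce in the sham mice and passed the filter only with its DOCA-salt UMIs. The median log2 change was 0.66, and stays the same with Havcr1 at the 48.2-fold difference given below. Lcn2, which encodes the urinary injury marker NGAL, was at 14.4, 4.87 and 13.7 CPM in the sham mice and 116, 152 and 65.2 CPM in the DOCA-salt mice, a 9.72-fold rise (log2 3.28 ± 0.35, adjusted p = 0.00217). Clu, the secreted chaperone clusterin, was at 58.1, 32.2 and 86.0 CPM against 327, 394 and 207 CPM (log2 2.39 ± 0.31, adjusted p = 0.00616). For both, the lowest DOCA-salt mouse lay well above the highest sham mouse. Spp1, which encodes osteopontin, was at 1946, 3277 and 1955 CPM against 7439, 3994 and 6185 CPM (log2 1.30 ± 0.26, adjusted p = 0.0353). Sham 2 and DOCA-salt 2 lay closest, and the call was lost without sham 1, sham 3, DOCA-salt 1 or DOCA-salt 3 (adjusted p up to 0.166). Leaving out TAL cells with macrophage or fibroblast UMIs kept 542 of 705, 431 of 476 and 607 of 745 sham cells but 350 of 656, 157 of 529 and 246 of 474 DOCA-salt cells, so a call lost there is not shown to be a weaker effect. In the cells kept, Clu was at 1.23 (adjusted p = 0.115) and Spp1 at 1.03 (adjusted p = 0.0975), while Lcn2 rose by 2.57 on the log2 scale (adjusted p = 0.00700). Clu lies on chromosome 14 at 66190200 to 66218999 and Lcn2 on chromosome 2 at 32274645 to 32278264 of GRCm39.

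Havcr1, which encodes the injury marker KIM-1, had 0 UMIs in all sham TAL cells and 81, 40 and 26 UMIs in the DOCA-salt mice. Against the 3 UMIs that a count of 0 allows over the sham group, its pooled level was 48.2-fold higher. That limit takes UMIs as independent draws. It covers neither their clumping in few cells nor the spread between mice, so 48.2-fold is not a lower bound. The DOCA-salt UMIs came from 13, 11 and 6 cells, 1.98%, 2.08% and 1.27% of the DOCA-salt TAL cells. A Havcr1 UMI was in 1.85%, 1.82% and 2.76% of the proximal tubule cells of the same mice and in 0.145% to 0.194% of those of the sham mice, and whether the UMIs in TAL cells are their own expression was not tested. Anxa3, a membrane-binding annexin, was at 5.39 to 7.04 CPM in sham and 14.4 to 19.7 CPM in DOCA-salt mice (log2 1.53 ± 0.21, adjusted p = 0.00700). The remaining rise on the list, Vcam1, named here after its value was seen, was at 0.541 to 1.86 CPM in sham and 3.96 to 15.6 CPM in DOCA-salt mice (adjusted p = 0.0330), and 1.69% to 4.16% of DOCA-salt TAL cells had a UMI of it, below the 6.12% to 7.33% of proximal tubule cells. Its call was lost without sham 1, sham 3, DOCA-salt 1 or DOCA-salt 2 (adjusted p up to 0.122).

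A small number of cells held a large share of the UMIs of some injury genes. TAL cells with at least 10 Clu UMIs, a limit also set after the values were seen and given without a test, numbered 3, 0 and 2 in the sham mice and 21, 17 and 9 in the DOCA-salt mice (3.20%, 3.21% and 1.90% of DOCA-salt TAL cells). They held 87.2%, 85.8% and 77.4% of the Clu UMIs, a share that the choice of cells sets, 68.7%, 75.9% and 48.2% of the Lcn2 UMIs and 44.0%, 41.1% and 30.4% of the Spp1 UMIs of the DOCA-salt TAL cells. They also held 50 of 81, 36 of 40 and 23 of 26 Havcr1 UMIs. A UMI of Lcn2 was in 18.6%, 22.1% and 19.2% of all DOCA-salt TAL cells, against 2.94% to 5.67% of sham TAL cells and 3.30%, 4.90% and 2.96% of DOCA-salt proximal tubule cells, which were deeper (median 9318 to 12290 UMIs). After thinning to 1000 UMIs the DOCA-salt shares were 4.01% to 4.91% in TAL and 0.242% to 0.617% in proximal tubule cells. The median depth of the cells rich in Clu was 16679 to 24607 UMIs, above the 7268 to 10650 UMIs of all TAL cells of the same mice. After thinning to 1000 UMIs, at least 2 Clu UMIs were left in 2.59%, 2.46% and 1.48% of DOCA-salt and 0.284%, 0.210% and 0.268% of sham TAL cells. At least 1 Clu UMI was left in 5.25%, 3.15% and 7.38% of sham and 5.64%, 8.32% and 6.33% of DOCA-salt TAL cells, shares that overlapped.

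In those DOCA-salt cells Egf and Umod, markers of the mature limb, were lower than in the other TAL cells of the same mice. Egf was at 242, 237 and 173 CPM against 4724, 3551 and 4100.5 CPM, and Umod at 7097, 5963 and 6617 CPM against 12723, 15982 and 13747 CPM. Slc12a1 was at 3077, 1869 and 3100 CPM against 7809, 7446 and 8132 CPM. It chose the cells, and deeper cells can meet its limit of 4 UMIs at a lower CPM, so its level is a description. Spp1 was at 39241, 18505 and 42499 CPM, Dcdc2a, a doublecortin family gene, at 438, 374 and 501 CPM, and C3, the central complement component, at 196, 275 and 161 CPM. The macrophage gene C1qa was at 7.86, 3.74 and 5.96 CPM in them against 9.27, 10.2 and 9.55 CPM in the others, and Lyz2 at 9.82, 5.61 and 5.96 CPM against 8.74, 16.4 and 10.7 CPM. The proximal tubule gene Lrp2, which the selection rule limits, was at 17.7, 200 and 17.9 CPM against 54.7, 42.2 and 78.6 CPM. In DOCA-salt 2 it was thus higher in the cells rich in Clu, as was Vcam1 (135 against 4.02 CPM). Doublet scores marked 1 of 21, 1 of 17 and 4 of 9 of these cells. The few sham cells rich in Clu, 3 in sham 1 and 2 in sham 3, were also lower in both markers. Egf was at 793 and 1494 CPM in them against 4705 and 4970 CPM in the other cells. Umod was at 3329 and 3933 CPM against 15265 and 17547 CPM. Of these sham cells, 2 of 3 and 1 of 2 also held at least 2 UMIs of Nos1 and Pappa2 together. Sham cells with that many had 506 to 1353 CPM of Egf and 1198 to 1897 CPM of Umod. Among the DOCA-salt cells rich in Clu, 1 of 21, 0 of 17 and 1 of 9 did. In sham 1, 1 cell rich in Clu also had at least 2 Aqp2 UMIs. The sham cells are thus not shown to be of the same kind as the DOCA-salt ones.

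**Figure D3:**
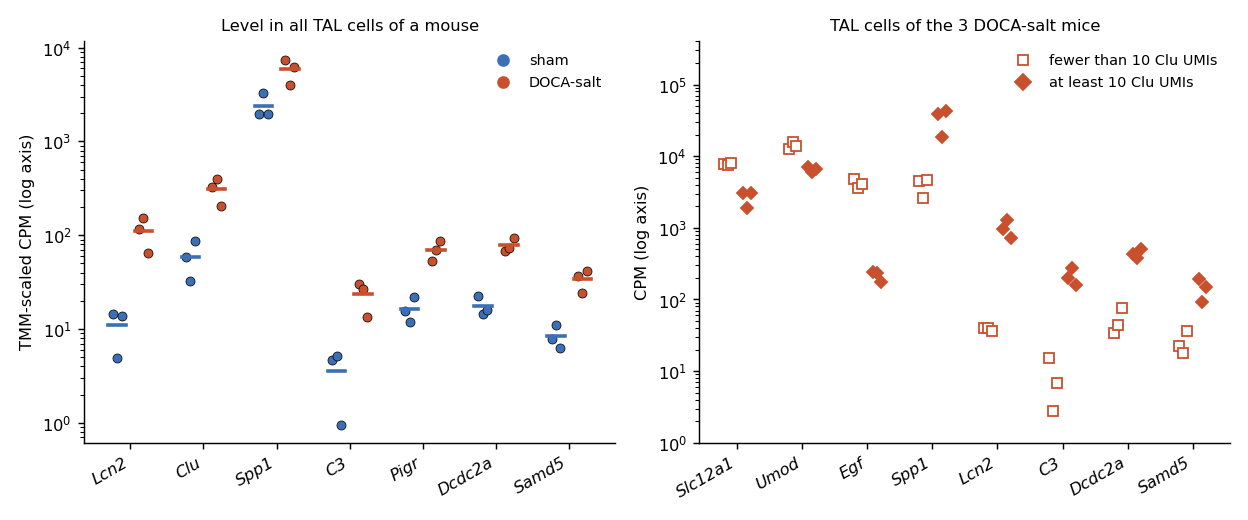
Left, TMM-scaled CPM (log axis) of 7 genes in the summed TAL cells of each mouse, with a line at the mean of each group. Right, CPM (log axis) of 8 genes in the DOCA-salt mice, 1 point per mouse, in TAL cells with fewer than 10 Clu UMIs (open squares) and with at least 10 (filled diamonds). The cells rich in Clu lie lower in Umod and Egf (173 to 242 CPM) and higher in Spp1 (18505 to 42499 CPM), Lcn2, C3, Dcdc2a and Samd5. Slc12a1, also lower in them, chose the cells.

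The comparison was repeated without those cells, which for Clu fixes the outcome, since they were chosen by it and 47 of 52 came from DOCA-salt mice. Clu was then at -0.07 (adjusted p = 0.953). Of the other called injury genes named here, Lcn2 still rose by 1.98 on the log2 scale (adjusted p = 0.00384), while Spp1 was at 0.73 (adjusted p = 0.266), Anxa3 at 0.98 (adjusted p = 0.184) and Vcam1 at 2.00 (adjusted p = 0.0794), and Havcr1 was then too scarce to be tested. Outside the injury list, Adamts1 was at 0.62 (adjusted p = 0.149) and 2610307P16Rik at 0.93 (adjusted p = 0.102), whereas Ptgds rose by 1.41 (adjusted p = 0.00975), Pigr by 2.03 (adjusted p = 0.00156), Dcdc2a by 1.51 (adjusted p = 0.0304) and Samd5 by 1.77 (adjusted p = 0.0220). Pigr, the receptor that carries IgA across epithelia, was at 15.7, 11.9 and 21.9 CPM in the sham mice and 53.4, 69.4 and 86.8 CPM in the DOCA-salt mice (log2 2.05 ± 0.22, adjusted p = 0.00241). Dcdc2a was at 22.4, 14.6 and 16 CPM against 67.4, 73.2 and 94.2 CPM (log2 2.12 ± 0.18, adjusted p = 0.000681). Neither overlapped between the groups. Over all TAL cells, Samd5 and Adamts1, a secreted protease, rose by 2.04 and 1.61 on the log2 scale, and Ptgds, a prostaglandin D synthase, by 1.44 (lost without sham 1, adjusted p = 0.0671). The transcript 2610307P16Rik rose by 1.34 (lost without sham 1, sham 3, DOCA-salt 2 or DOCA-salt 3, adjusted p up to 0.112).

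Secreted proteins of the limb thus moved in both directions, with 3 rises (Lcn2, Clu and Spp1) and 1 fall among 13 tested genes (median -0.08). The fall was that of Klk1, tissue kallikrein, at 3047, 2433 and 2738 CPM against 1772, 1518 and 1564 CPM (log2 -0.76 ± 0.14, adjusted p = 0.0280), lost without any mouse but sham 2 (adjusted p up to 0.140). Kl, which encodes klotho, was at 149, 225 and 159 CPM against 123, 93.9 and 106 CPM and did not pass (log2 -0.72 ± 0.17, adjusted p = 0.0681).

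In the cytokine and complement list, 2 of 18 tested genes rose and none fell (median 0.68), against 0.848% rises among all genes. Of the 2, C3 did not meet the low-count filter in sham 3 and passed it only with DOCA-salt UMIs. C3 was at 4.66, 5.14 and 0.962 CPM in the sham mice and 30.3, 26.8 and 13.5 CPM in the DOCA-salt mice (log2 2.76 ± 0.42, adjusted p = 0.0127). Its unscaled level in DOCA-salt TAL cells, 23.6 CPM, was below the 52.0 CPM of proximal tubule cells. Icam1, a leukocyte adhesion molecule, was at 5.74 to 6.73 CPM against 10.8 to 15.1 CPM (log2 1.13 ± 0.20, adjusted p = 0.0244), lost without sham 1, sham 3, DOCA-salt 1 or DOCA-salt 2 (adjusted p up to 0.118). Without the cells rich in Clu, C3 was at 1.27 (adjusted p = 0.474) and Icam1 at 0.54 (adjusted p = 0.353).

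Of 18 genes of interferon response and antigen presentation, 2 rose (median 0.19). B2m, the light chain of MHC class I, was at 27.6, 31.1 and 35.4 CPM against 44.2, 55.6 and 54.9 CPM (log2 0.72 ± 0.14, adjusted p = 0.0353), lost without sham 1, sham 3, DOCA-salt 2 or DOCA-salt 3 (adjusted p up to 0.167). H2-Aa, a chain of MHC class II, was at 8.23, 4.06 and 6.73 CPM against 16.6, 28.5 and 26.7 CPM (log2 1.85 ± 0.27, adjusted p = 0.0107), lost without DOCA-salt 3 (adjusted p = 0.0586). Unscaled, H2-Aa stood in the DOCA-salt mice at 24.1 CPM in TAL cells, 33.7 CPM in DCT cells, 22.5 CPM in principal cells and 54.2 CPM in proximal tubule cells, beside 460.2 CPM in the whole suspensions.

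Transcripts of macrophages and fibroblasts moved with the groups in the same sums. The 9 macrophage markers outside the selection rule summed to 124 to 226 CPM in sham and 364 to 550.4 CPM in DOCA-salt TAL cells, the 7 fibroblast markers to 4.92 to 5.39 CPM against 33.8 to 73.8 CPM and the 7 endothelial markers to 13.0 to 21.4 CPM against 25.2 to 59.3 CPM, with none of these markers at 0 in all mice. Lymphocyte, red cell and podocyte markers summed to at most 4.66 CPM in any mouse. Of the tested macrophage markers C1qa, Lyz2, Apoe and C1qc rose (4 of 8), and of the fibroblast markers Mgp, Col3a1 and Col1a2 (3 of 4), against 0.848% of all genes. At least C1qa, Lyz2 and Col3a1 did not meet the low-count filter in all 3 sham mice and passed it only with DOCA-salt UMIs. The call of Apoe was lost without sham 1, DOCA-salt 2 or DOCA-salt 3, that of C1qc without sham 3, DOCA-salt 2 or DOCA-salt 3, that of Col3a1 without DOCA-salt 3 and that of Col1a2 without any mouse but sham 2 (adjusted p up to 0.139). The defining genes Ptprc, Pecam1 and Col1a1 were at 0 by the selection rule. Mgp, a matrix protein of stromal cells, averaged 38.1 CPM in DOCA-salt TAL cells, 36.6 CPM in DCT cells, 34.5 CPM in principal cells and 36.9 CPM in proximal tubule cells, against 1170.3 CPM in the whole suspensions, and C1qa 9.40, 13.0, 9.40 and 10.3 CPM against 179 CPM. These levels were alike in the 4 kinds of tubule cell and well below those of the suspensions, and whether they are expression in the TAL was not tested. The intercalated cell list held 1 rise among 6 tested genes, Atp6v0d2 (log2 1.11 ± 0.15, adjusted p = 0.00811), the proximal tubule list 0 of 10 and the endothelial list 0 of 6. Fabp4 (log2 2.83 ± 0.59, adjusted p = 0.0422), with 474 CPM in the DOCA-salt suspensions, 42.6 CPM in TAL cells and 16.2 to 19.4 CPM in the other tubule cells, reached 86.8 CPM in DOCA-salt 3 and 15.9 and 23.7 CPM in the other DOCA-salt mice, and its call was lost without sham 1 or sham 3 (adjusted p up to 0.166). Without TAL cells that held macrophage UMIs other than Apoe or fibroblast UMIs other than Mgp, 27 genes rose and 42 fell, in a sum that lacks a larger part of the DOCA-salt than of the sham cells. Apoe (log2 1.31, adjusted p = 0.0178) and Mgp (log2 4.27, adjusted p = 0.000211) still rose in the cells kept.

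Chaperones of the endoplasmic reticulum gave 3 rises and no fall among 22 tested genes (median 0.06), against 0.848% rises among all genes. Hspa5, the chaperone BiP, was at 257, 246 and 219 CPM in the sham mice and 484, 414 and 488 CPM in the DOCA-salt mice (log2 0.94 ± 0.13, adjusted p = 0.00700). The groups lay far apart, and the call held without each mouse in turn (adjusted p up to 0.0457). Creld2, a stress-induced protein of the same compartment, was at 9.16, 8.12 and 9.43 CPM against 16.4, 15.6 and 19.5 CPM (log2 0.93 ± 0.17, adjusted p = 0.0285), and Manf, a secreted trophic factor, at 63.0, 75.0 and 48.5 CPM against 109, 89.6 and 129 CPM (log2 0.82 ± 0.18, adjusted p = 0.0497). Creld2 lost its call without any mouse but sham 2 (adjusted p up to 0.128), and Manf without sham 1, sham 3, DOCA-salt 1 or DOCA-salt 3 (adjusted p up to 0.215). Hsp90b1, Calr, Canx and Pdia3 lay between -0.09 and 0.01 and did not pass. Without the cells rich in Clu, Hspa5 still rose by 0.86 on the log2 scale (adjusted p = 0.0191), and Creld2 (0.87, adjusted p = 0.0531) and Manf (0.72, adjusted p = 0.0991) did not pass.

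The stress response of the endoplasmic reticulum acts in part through the promoter element ERSE, whose letters are CCAAT and CCACG with 9 bases of any kind between them. These letters, or their reverse complement (CGTGG, 9 bases, ATTGG), were searched on both strands in the 250 bases before the RefSeq start of each gene (GRCm38.p6). They stood in 37 of 32851 promoters (0.113%) and in 8 of the 21 promoters found for the 23 listed genes. Those were the promoters of Hspa5, Calr, Hsp90b1, Canx, Pdia6, Dnajc3, Creld2 and Syvn1, of which Hspa5 and Creld2 rose in TAL cells. These 2 promoters are shown for the 2 rises, with the matched letters in capitals, from chr2:34771840-34772089 on the plus strand for Hspa5 and from chr15:88819396-88819645 on the plus strand for Creld2.
Hspa5: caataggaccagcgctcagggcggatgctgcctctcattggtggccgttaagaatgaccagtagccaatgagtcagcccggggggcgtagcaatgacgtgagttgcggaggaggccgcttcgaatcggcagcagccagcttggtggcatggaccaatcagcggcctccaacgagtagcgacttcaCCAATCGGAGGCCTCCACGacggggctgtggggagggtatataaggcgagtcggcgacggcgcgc
Creld2: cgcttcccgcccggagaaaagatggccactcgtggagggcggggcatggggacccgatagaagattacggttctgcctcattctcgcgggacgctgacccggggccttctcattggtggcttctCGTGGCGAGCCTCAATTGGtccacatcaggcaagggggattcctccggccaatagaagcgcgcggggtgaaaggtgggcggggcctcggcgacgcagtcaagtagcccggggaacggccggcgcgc
The match starts 65 bases before the start site in Hspa5, in the forward orientation, and 126 bases before it in Creld2, in the reverse. A match of letters is a description and not a site of binding, and 6 of the 8 genes with it did not pass the test.

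Of 16 listed cell cycle genes, 9 could be tested, of which 2 rose and none fell (median 0.03). Mki67, a marker of dividing cells, was at 1.24, 2.17 and 2.50 CPM against 4.75, 6.96 and 7.39 CPM (log2 1.70 ± 0.34, adjusted p = 0.0353), lost without sham 1, sham 3, DOCA-salt 2 or DOCA-salt 3 (adjusted p up to 0.166). Mki67 also did not pass with doublet scores removed (1.32, adjusted p = 0.188), with at least 8 Slc12a1 UMIs (1.44, adjusted p = 0.0790), with the proximal tubule limit at 0.05% (1.59, adjusted p = 0.0892), in Cldn16 or Cldn19 cells alone (1.47, adjusted p = 0.101), without cells with a Nos1 or Pappa2 UMI (1.45, adjusted p = 0.155) or without the cells rich in Clu (adjusted p = 0.0990). The log2 change stayed above 1.3 in each, so these losses do not show that the cells left out carried the rise. Top2a, the topoisomerase of replicating DNA, had 3 UMIs in the sham and 53 in the DOCA-salt TAL cells, a ratio of 17.4 (95% counting interval 5.63 to 86.9). Neither Mki67 nor Top2a met the low-count filter in all 3 sham mice, so both passed it only with DOCA-salt UMIs. In the basement membrane list, 1 of 16 tested genes rose (median 0.08), and it passed the low-count filter only through its DOCA-salt UMIs. That gene was Fn1, fibronectin, with 3 UMIs in sham and 80 in DOCA-salt TAL cells, a ratio of 26.2 (8.66 to 129.9), and with 4.71, 5.17, 3.27 and 2.78 CPM in the TAL, DCT, principal and proximal tubule cells of the DOCA-salt mice beside 61.2 CPM in the whole suspensions. The counting intervals do not cover the spread between mice. Top2a was too scarce to be tested under several of these alternatives, doublet removal among them. With 1 mouse left out, adjusted p was up to 0.0718 for Top2a (lost without sham 1, sham 3 or DOCA-salt 3) and 0.0577 for Fn1 (lost without sham 1). The fitted log2 change of Top2a, 3.92 over all mice, was 3.20 without sham 1 and 4.95 without sham 2, and that of Fn1, 4.47, was 3.75 without sham 1, 5.29 without sham 3 and 3.45 without the cells rich in Clu. With so few sham UMIs these fitted values depend on the prior count.

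Energy metabolism gave no call. None of 25 respiratory chain genes (smallest adjusted p 0.411), 10 mitochondrial regulators (0.240) or 16 tested glycolysis genes (0.143) passed the edgeR test, and their log2 changes ran from -0.24 to 0.24, from -0.63 to 0.43 and from -0.41 to 0.69. Likewise, 0 of 17 tested nephron transcription factors (0.114) and 0 of 22 genes that respond to tissue dissociation (0.0561) passed, the latter summing to 4894 to 5646 CPM in sham and 5138 to 5434 CPM in DOCA-salt TAL cells. Of 24 genes of ATP release and purine signals, 12 could be tested and 0 passed (0.190). Panx1, the ATP release channel, was too scarce to test, at 1.09 to 2.15 unscaled CPM in sham and 0.654 to 2.14 CPM in DOCA-salt TAL cells.

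Some changes of the TAL differed from those of the neighboring DCT and of principal cells, as tested by the interaction of cell type and group with each mouse as a block. Between TAL and DCT, 536 of 11932 genes differed (4.49%), with 183 higher (1.53%) and 353 lower (2.96%) in the TAL, or 101 and 550 with library size as the only scaling, which put the median difference of all genes at -0.126 in place of -0.0155. Clu rose more in the TAL than in the DCT, where its change was 0.38 (difference 2.01 ± 0.13 on the log2 scale, adjusted p = 1.02e-10), although the DCT held more of it, at 925 unscaled CPM in sham and 1336.2 CPM in DOCA-salt mice. Pigr also rose more (1.29 ± 0.18, adjusted p = 3.96e-05), and Sfrp1 fell further than in the DCT, at -0.83 (-0.66 ± 0.11, adjusted p = 0.000565). Egf went the other way. It fell by 1.43 in the DCT, more than the -0.55 of the TAL (0.88 ± 0.14, adjusted p = 0.000227). Dcdc2a rose in both and by less in the TAL (-1.09 ± 0.20, adjusted p = 0.00137).

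Between TAL and principal cells, 738 of 12515 genes differed (5.90%), with 305 higher (2.44%) and 433 lower (3.46%) in the TAL, or 407 and 351 with library size alone. Wnk1 fell further in the TAL (-0.72 ± 0.18, adjusted p = 0.0262), whereas its difference from the DCT did not pass (-0.36 ± 0.12, adjusted p = 0.0970). Klk1 fell by 2.81 in principal cells, far more than in the TAL (2.01 ± 0.19, adjusted p = 1.08e-05), and B2m rose more in principal cells (-0.97 ± 0.16, adjusted p = 0.00119). For Spp1 and Hspa5 the differences did not pass against the DCT (-0.04 ± 0.13 and -0.12 ± 0.11, adjusted p = 0.934 and 0.682) or against principal cells (0.43 ± 0.16 and 0.51 ± 0.16, adjusted p = 0.150 and 0.0728), which does not show that they moved alike. Both tests share their TAL sums.

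**Figure D4:**
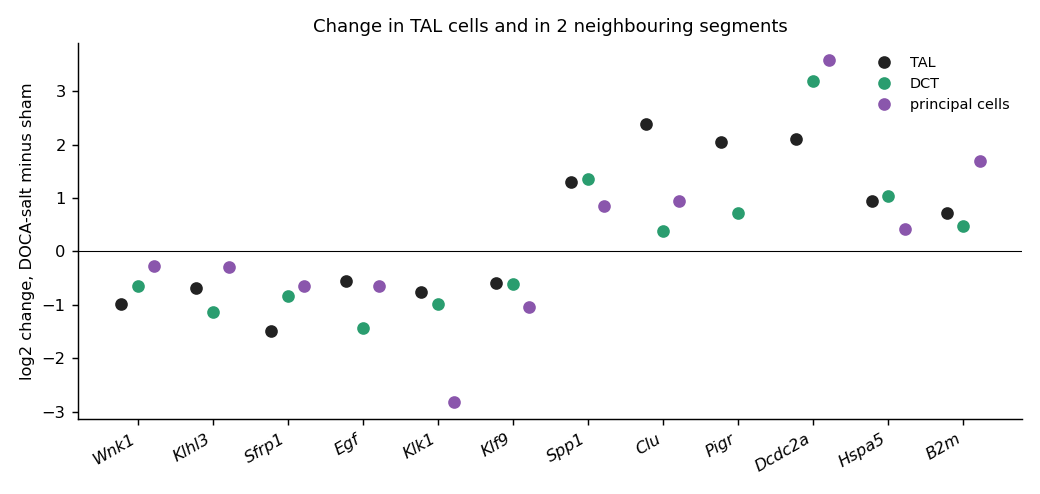
Log2 change (y axis, DOCA-salt minus sham, edgeR on summed cells of 3 mice per group) of 12 genes in TAL cells (black), DCT cells (green) and principal cells (purple), and Pigr was not tested in principal cells alone. Clu and Pigr lie highest in the TAL, Sfrp1 lowest in the TAL, Egf lowest in the DCT and Klk1 lowest in principal cells.

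Within the limb, the change in cells with a Cldn16 or Cldn19 UMI was compared with that in cells with Cldn10 and neither. Most cells of the first set also held Cldn10, so Cldn10 itself does not part the sets. They were 421 of 569, 282 of 390 and 381 of 555 in the sham mice. In the DOCA-salt mice they were 406 of 568, 352 of 445 and 267 of 376. Of 10955 genes, 42 differed (0.383%), 21 in each direction (0.192%), or 24 and 12 with library size alone, and Clu was the one of 40 named genes tested that passed. Its rise was larger by 2.50 ± 0.34 on the log2 scale in the Cldn16 or Cldn19 cells (adjusted p = 0.000785). The median depth of those cells was 7672 to 11032 UMIs, against 5666 to 7634 UMIs for the Cldn10 cells, and the latter numbered 52 to 101 per mouse. A deeper cell more often holds a Cldn16 or Cldn19 UMI. The DOCA-salt cells rich in Clu were deeper still, at a median of 16679 to 24607 UMIs, and how many fell in each class was not counted. For the Clu difference, claudin class and depth thus cannot be told apart.

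Clock genes also moved. The list of 20 was drawn up after Dbp and Nr1d1 were found among the 10 largest falls, so its count is a description. It held 2 rises and 5 falls with a median of -0.48. Dbp, an output gene of the clock, was at 26.1, 38.2 and 31.7 CPM in the sham mice and 11.3, 12.6 and 7.66 CPM in the DOCA-salt mice (log2 -1.56 ± 0.20, adjusted p = 0.00616). Nr1d1, the repressor Rev-erb alpha, was at 38.7, 27.9 and 40.4 CPM against 10.5, 18.6 and 11.4 CPM (log2 -1.40 ± 0.22, adjusted p = 0.0141), lost without sham 1, sham 3, DOCA-salt 1 or DOCA-salt 3 (adjusted p up to 0.0858). Arntl, the activator Bmal1 that Nr1d1 represses, was at 9.94, 8.12 and 11.7 CPM against 22.6, 19.7 and 39.1 CPM (log2 1.40 ± 0.26, adjusted p = 0.0280). Tef was at -0.78, Usp2 at -0.60 and Ciart at -1.82 (adjusted p = 0.0142, 0.0414 and 0.0330). The calls of Arntl, Tef, Usp2 and Ciart held without sham 2 and, for Arntl and Tef, also without DOCA-salt 2, and were lost without any other mouse (adjusted p up to 0.201). Clock was at 0.15, Per1 at -0.58 and Cry1 at 0.31, without passing.

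The same genes were measured in the other tubule cells of the same mice. Of all genes, 6.26% passed in DCT cells, 8.92% in principal cells and 5.14% in proximal tubule cells. In proximal tubule cells Arntl was at 1.88, Dbp at -2.55 and Nr1d1 at -1.62, all called, and in principal cells Dbp was at -2.68 and Nr1d1 at -2.16, both called. In DCT cells Arntl, Dbp and Nr1d1 did not pass (-0.56, -0.53 and -0.57), and the change of Arntl differed from that of the TAL (1.93 ± 0.23, adjusted p = 5.62e-06). The hour at which each mouse was sampled is not given in the sources used here, and its part in these changes was not tested.

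**Figure D5:**
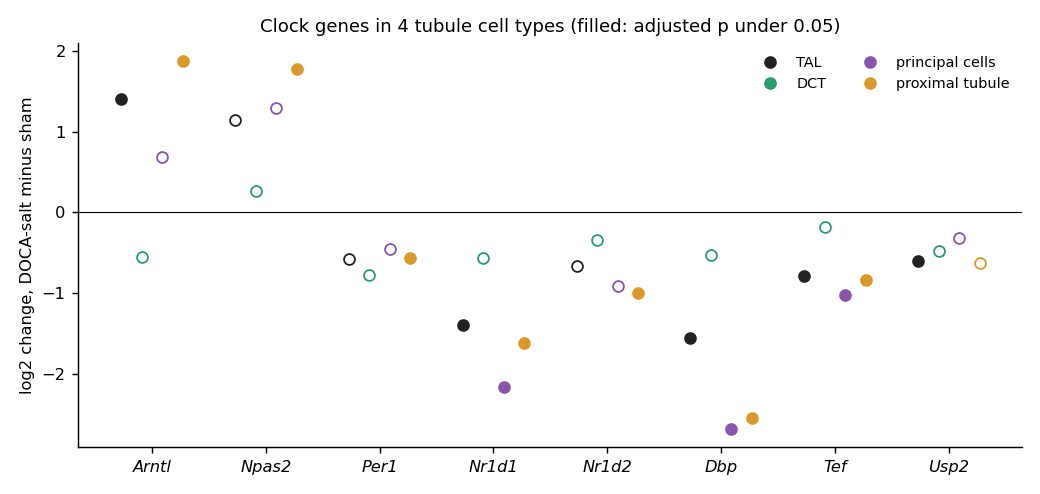
Log2 change (y axis, DOCA-salt minus sham, edgeR on summed cells of 3 mice per group) of 8 clock genes in TAL, DCT, principal and proximal tubule cells, with filled points for adjusted p under 0.05. Dbp and Nr1d1 lie below 0 in all 4 cell types, down to -2.68, and no DCT point is filled.

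The remaining large falls were in Phactr1, Gm32960, 4930556J24Rik, Inmt, S100g and Cyp4b1. Phactr1, a phosphatase and actin regulator, was at 42.5, 43.0 and 42.1 CPM against 16.6, 7.45 and 11.9 CPM (log2 -1.83 ± 0.22, adjusted p = 0.00449), and its fall differed from the DCT change of -0.23 by -1.63 ± 0.19 (adjusted p = 5.62e-06). Without the cells with at least 2 Aqp2 UMIs, Phactr1 fell by 0.91 (adjusted p = 0.0312) and S100g was at -1.24 (adjusted p = 0.162). The unnamed transcripts Gm32960 and 4930556J24Rik fell by 1.79 and 1.80 on the log2 scale (adjusted p = 0.000681 for each), and by 2.31 and 2.01 in DCT cells. Inmt, a methyltransferase, fell by 1.80 (adjusted p = 0.0216), S100g, a calcium-binding protein, by 1.47 (adjusted p = 0.0240) and Cyp4b1, a monooxygenase, by 1.41 (adjusted p = 0.0133). In sham mice Inmt stood at 553 unscaled CPM in proximal tubule cells and S100g at 8555 CPM in principal cells, against 72.8 and 181 CPM in the TAL. These 3 calls were lost without sham 1, DOCA-salt 1 or DOCA-salt 3, and that of Inmt also without sham 3 or DOCA-salt 2 (adjusted p up to 0.0946).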

How the data were processed

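Single-cell suspensions of whole kidneys were sequenced as 3' UMI libraries, 1 from each of 6 mice. The authors deposited raw UMI counts per barcode and gene (33696 genes), aligned to GRCm39 with Cell Ranger, per the labels version 9.0.0 and per the file headers 8.0.1. The labels also name Seurat 4.0.0 and R 4.0.3 for steps not used here, and the annotation release is not given in the sources used here. The deposited counts hold 93172739 to 137819127 UMIs and 11058 to 14449 barcodes per mouse, and the TAL cells 3604773 to 6499527 UMIs per mouse. Reads spanning genes that share a strand are not told apart by such counting, and 19 of the named genes overlap another gene on their strand, among them Robo2, with 11 genes inside it, and Manf with Rbm15b.

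TAL members and gene lists were chosen with earlier results of these data known. Groups and mouse numbers came from the sample labels. UMIs were summed per mouse over the TAL cells, and likewise over DCT cells (Slc12a3 at least 4), principal cells (Aqp2 at least 4) and proximal tubule cells (at least 4 UMIs and 0.5% of UMIs in the proximal tubule genes). Sums were tested with the quasi-likelihood F test of edgeR 4.0.16 in R 4.3.3 after filterByExpr and TMM scaling, with Benjamini-Hochberg adjustment, and an adjusted p in the text comes from this fit unless an alternative is named beside it or, between cell types, from the interaction of cell type and group with the mouse as a block. Each mouse was a separate animal. Single values were compared with exact two-sided permutation tests, and intervals cover counting error only. Doublets were scored with a re-implementation in the manner of Scrublet, removing 0.8% per 1000 barcodes in an alternative only. The named genes were Slc12a1, Umod and Egf, up to 4 called members of each list by adjusted p, and the 10 largest rises and 10 largest falls among called genes of at least 20 CPM whose groups did not overlap and that were on no list of another cell type. Genes named outside this rule are given as values of a list or said to be chosen after their values were seen. Alternatives were other scalings, DESeq2 1.42.0, no low-count filter, other cell limits, thinning to 1000 UMIs and leaving out each mouse. Tables were handled with numpy 2.4.6, pandas 2.3.3 and scipy 1.17.1. On simulated data for the TAL comparison (12150 genes, 200 changed) 97% of 2-fold and 100% of 4-fold changes were recovered, with 12 false among 209 calls. The changed genes were drawn from those averaging at least 20 CPM, and noise was independent between genes. The simulation thus does not cover scarcer genes, such as Nos1, Pappa2 or Ptgs2. Nor does it cover differences between libraries that many genes share, so its false calls are not a rate for the real data.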

Additional observations from a re-analysis of the deposited data

Results flagged for a closer look

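For the following genes the DOCA-salt change differed between TAL and other cells by the interaction test of edgeR, given as log2 differences (TAL minus the other cells). The interaction was not tested again without TAL cells holding at least 2 Aqp2 UMIs. Without those cells the TAL changes of Hsd11b2 (-0.68, adjusted p = 0.257), Aqp3 (-0.82, adjusted p = 0.310) and S100g did not pass. Scnn1b was then too scarce to be tested, and Phactr1 fell by less. Against DCT cells 536 genes differed. Among the named genes the change was higher in the TAL for Egf (0.88), Klhl3 (0.45), Clu (2.01) and Pigr (1.29), and lower for Scnn1b (-2.01), Hsd11b2 (-2.42), Anxa3 (-2.02), Dcdc2a (-1.09), 2610307P16Rik (-1.11), Phactr1 (-1.63), Inmt (-0.87), Sfrp1 (-0.66) and S100g (-1.11).

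Against principal cells 738 genes differed. The change was higher in the TAL for Clu (1.54), Klk1 (2.01), Atp6v0d2 (1.94), Samd5 (1.43) and Adamts1 (0.74), and lower for Wnk1 (-0.72), Scnn1b (-1.08), Hsd11b2 (-1.31), B2m (-0.97), Aqp3 (-1.07), Dcdc2a (-1.40), Ptgds (-1.56), Robo2 (-5.00) and Phactr1 (-1.50). Robo2 averaged 0.382 unscaled CPM in sham and 2.49 CPM in DOCA-salt principal cells, so its difference rests on few UMIs there. Between cells with Cldn16 or Cldn19 and cells with Cldn10 and neither of these, 42 genes differed, with Clu (2.50) the one named gene among them. For Clu, claudin class and depth cannot be told apart.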

How the results depend on the processing

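The TAL comparison, with 182 calls, gave 183 to 255 with DESeq2 size factors, library size alone or the DESeq2 test, 770 without the filter on low counts, 94 with at most 20% mitochondrial UMIs, 46 with cells thinned to 1000 UMIs (6798 genes tested), 72 in Cldn10 cells alone and 44 to 636 with 1 mouse left out. Alternatives added after the data were seen gave 105 calls without the cells with at least 10 Clu UMIs and 69 without cells holding macrophage or fibroblast UMIs. With the replicate block the count was 18. Same-numbered mice did not deviate together (r = -0.236, -0.623 and -0.294). Deviations from a mean of 3 mice are not independent of each other, so this check cannot show that same-numbered mice share nothing. The difference from the DCT (536 genes) was 91 after thinning and 316 to 492 with 1 mouse left out, that from principal cells (738) 72 and 376 to 715, and that between claudin classes (42) 8 to 151. The TAL share difference of -1.36 points turned to 0.440 with the proximal tubule limit at 0.05%, ran from -1.95 to -0.920 with 1 mouse left out, and was -5.37 over low proximal tubule barcodes, -0.517 over all barcodes and -0.163 with at most 20% mitochondrial UMIs. The claudin share difference of 0.803 points ran from -0.778 to 2.17, turning without sham 3 or DOCA-salt 1, and was 4.30 unthinned. Among named genes, 893 of 1152 repeats kept direction and side of the threshold, 255 kept direction only and 2 passed newly, both of them Egf (with DESeq2 and without the low-count filter). Umod turned to 0.43 at the 20% mitochondrial limit and Clu to -0.0743 without cells with at least 10 Clu UMIs. Named calls were lost for Manf with DESeq2 size factors or library size alone. With at least 8 Slc12a1 UMIs, with the proximal tubule limit at 0.05% and with doublet scores removed alike, Scnn1b, Hsd11b2, B2m and Mki67 were lost, besides Icam1 under the Slc12a1 and proximal tubule limits, Aqp3 under the Slc12a1 limit and doublet removal, Creld2 and Manf under the proximal tubule limit, and Col1a2, Fabp4 and S100g with doublets removed. Thinning ended the calls of Slc9a2, Klhl3, Vdr, Klf9, Hsd11b2, B2m, Atp6v0d2, Samd5, 2610307P16Rik and Dbp. Of these, Slc9a2 was then at -0.92 (-0.88 unthinned), B2m at 0.94 (0.72), Klf9 at -0.55 (-0.59) and Klhl3 at -0.27 (-0.68), so a call lost by thinning is not in itself a smaller change. In Cldn10 cells alone 18 calls were lost, among them Wnk1, Clu, Spp1, Hspa5 and Pigr, and with at most 20% mitochondrial UMIs, which left 54 to 82 cells per mouse, 20, among them Klk1, C3 and Phactr1. These losses were not alike in size. In Cldn10 cells Wnk1 was at -0.96 (-0.99 over all TAL cells) and Hspa5 at 0.77 (0.94), but Clu at 0.17 (2.39). Under the mitochondrial limit C3 was at 2.41 (2.76) and Klk1 at -0.53 (-0.76). The cause was not tested.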
